A study of Mus musculus with 23 samples.

Results

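The transcripts of 8 voltage-gated Na+ channel subunits were examined in astrocytes of the mouse cerebral cortex: the pore-forming α-subunit genes Scn1a, Scn3a, Scn8a, Scn9a and Scn7a and the auxiliary β-subunit genes Scn2b, Scn3b and Scn4b. They were taken by symbol from a table of 24411 genes, and all 8 passed the filter on low counts in every comparison. The data were 23 RNA-seq libraries of polyadenylated RNA, each from cortical cells of 1 mouse that magnetic beads had captured through ACSA-2, a surface epitope of the astrocyte Na+,K+-ATPase subunit ATP1B2. All mice were labelled male, which the data of 1 library go against, and carried Aldh7a1 flox/flox, and all received 4-hydroxytamoxifen at postnatal days 3 and 4. cKOAstro mice also carried Slc1a3-CreER/+, which places a tamoxifen-inducible Cre recombinase under the promoter of the glutamate transporter Slc1a3, active in astrocytes and related glia. ConAstro mice had no Cre. From postnatal day 21 until tissue was taken at postnatal day 70, mice ate control food or food containing sulforaphane (SFN), which activates the antioxidant transcription factor NRF2. On control food there were 4 ConAstro and 7 cKOAstro mice, and on SFN food 5 ConAstro mice and 7 cKOAstro mice, called SFN-fed here. The comparisons ask whether loss of ALDH7A1, an aldehyde dehydrogenase of lysine breakdown, and SFN change the ion channel transcripts of astrocytes.

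Voltage-gated Na+ channels open on depolarization and carry the rising phase of the action potential. An α subunit forms the pore, and β subunits alter its gating and tie it to the membrane skeleton and to other cells. These channels are best known from neurons, while astrocytes set extracellular ion levels mainly through Na+,K+-ATPases, transporters and K+ channels. Scn7a encodes Nax, an α-subunit relative that responds to extracellular Na+ concentration rather than to voltage and is known from glia of the organs that sense body Na+.

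Libraries held between 46890715 and 391701247 counts, and every ConAstro library (74771451 to 84049525) was shallower than every cKOAstro library (107847897 to 391701247). Aldh7a1 served as a check of the labels and lay between 207 and 220 CPM (counts scaled to a common library size by the TMM method) in ConAstro and between 45.9 and 77.2 in cKOAstro. A pair of libraries went against their labels, the one labelled SFN-fed ConAstro replicate 1 (55.7 CPM) and the one labelled SFN-fed cKOAstro replicate 2 (222 CPM). Without them the SFN-fed groups lay at 177 to 226 and 43.0 to 56.5 CPM. cKOAstro replicate 2, labelled male, held Xist at 1541 CPM, against a median of 0.339 over all libraries. SFN-fed cKOAstro replicate 4 stood apart, with a summed oligodendrocyte marker level of 61050.5 CPM (median over all libraries 30808) and the lowest summed neuron and astrocyte marker levels (310 and 16776 CPM). Astrocyte markers (12 genes) were high in every library, between 16776 and 30333 CPM in sum, but so were the 10 oligodendrocyte markers, between 23788 and 61050.5 CPM in sum.

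The α-subunit genes Scn3a, Scn1a, Scn9a and Scn7a lie on chromosome 2 (positions from GENCODE M21 on GRCm38, which is mm10). Scn9a (66480080 to 66634962) and Scn7a (66673425 to 66784914) are neighbours on the minus strand, 38.5 kb apart, and Scn1a (66270778 to 66440840, minus strand) ends 39.2 kb from Scn9a. Scn3a (65457118 to 65567627) is on the minus strand as well. Scn8a is on chromosome 15 (100869858 to 101045938, plus strand), and Scn3b (40269217 to 40291618), Scn2b (45117782 to 45130070) and Scn4b (45138395 to 45154152) are on the plus strand of chromosome 9, the last 2 only 8.32 kb apart. All are protein coding. The long noncoding gene Gm13629 overlaps Scn9a on the opposite strand and Gm10684 overlaps Scn2b. Whether counting used the strand is not given in the sources used here. Reads from any exon stretch that a pair shares therefore cannot be told apart. The overlap was taken from the ends of the genes, and shared exons were not looked for. Gm13629 held at most 0.194 CPM, which is not small beside Scn9a (median 0.320 CPM, lowest 0.0732). Gm10684 held at most 0.0271 CPM, beside at least 3.57 CPM for Scn2b.

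The upstream sequences of Scn7a and Scn9a are shown because these neighbours had the largest differences between groups, and that of Scn8a because it held the only match to the core of the antioxidant response element, the NRF2 binding motif. They come from RefSeq (GRCm38.p6), which gave a window of 250 bases before and 50 after the start for 6 of the 8 genes, all but Scn3a and Scn3b. Each runs 5′ to 3′ on the strand of its gene, up to the base before the start or before the first annotated exon base. None overlaps an annotated exon, and the Scn8a stretch lies in an intron of a longer Scn8a transcript. Capitals mark matches on either strand to TGACNNNGC, the antioxidant response element core, in Scn8a and to GGGCGG, a GC box, in Scn7a. TATAAA was searched too.
Scn7a, chr2:66784915-66785110, minus strand: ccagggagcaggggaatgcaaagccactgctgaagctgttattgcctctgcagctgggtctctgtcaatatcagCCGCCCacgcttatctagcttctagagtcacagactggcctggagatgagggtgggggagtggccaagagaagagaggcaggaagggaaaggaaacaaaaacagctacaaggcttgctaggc
Scn9a, chr2:66634963-66635162, minus strand: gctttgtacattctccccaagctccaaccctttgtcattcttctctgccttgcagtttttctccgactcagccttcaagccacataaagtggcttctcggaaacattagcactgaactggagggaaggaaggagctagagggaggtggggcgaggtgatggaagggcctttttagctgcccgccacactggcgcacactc
Scn8a, chr15:100870445-100870644, plus strand: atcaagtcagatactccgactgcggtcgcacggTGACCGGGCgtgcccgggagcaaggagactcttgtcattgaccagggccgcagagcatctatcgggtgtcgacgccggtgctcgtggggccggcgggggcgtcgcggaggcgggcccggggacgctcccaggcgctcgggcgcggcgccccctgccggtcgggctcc
Among the windows of all 32851 RefSeq promoters, 12.4% held TGACNNNGC, 35.7% GGGCGG and 13.6% TATAAA. Of the members, Scn8a alone matched the first and Scn7a alone the second, and none matched the third. The Scn8a window, the first of 2 for this gene, was rich in CG dinucleotides (38, against a median of 7 over all windows), whereas that of Scn7a held 3 and that of Scn9a held 9. These matches describe letters only.

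Levels were compared between genes as CPM per kilobase (kb) of merged exon. Scn2b (median 2.98 CPM per kb over 23 libraries), Scn8a (2.20) and Scn3b (2.09) were the most abundant of the 8 and lay close together. Scn2b, a β subunit that links covalently to neuronal α subunits, exceeded Scn8a in 18 of 23 libraries, and Scn8a, the α subunit Nav1.6 of nodes and axon initial segments, exceeded Scn3b in 16 of 23, so neither order held in all libraries. Scn7a (1.14) came next and was below Scn3b in 23 of 23 libraries and above Scn4b (0.421) in 23 of 23. Scn4b, Scn1a (0.337) and Scn3a (0.279) again did not separate in all libraries, with Scn4b above Scn1a in 18 and Scn1a above Scn3a in 17. Scn9a was far lower, with a median of 0.0251 CPM per kb, and its range did not meet that of Scn3a, which was 9.76-fold higher in the median library. These orders are on the scale of levels per length and were not tested.

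**Figure D1:**
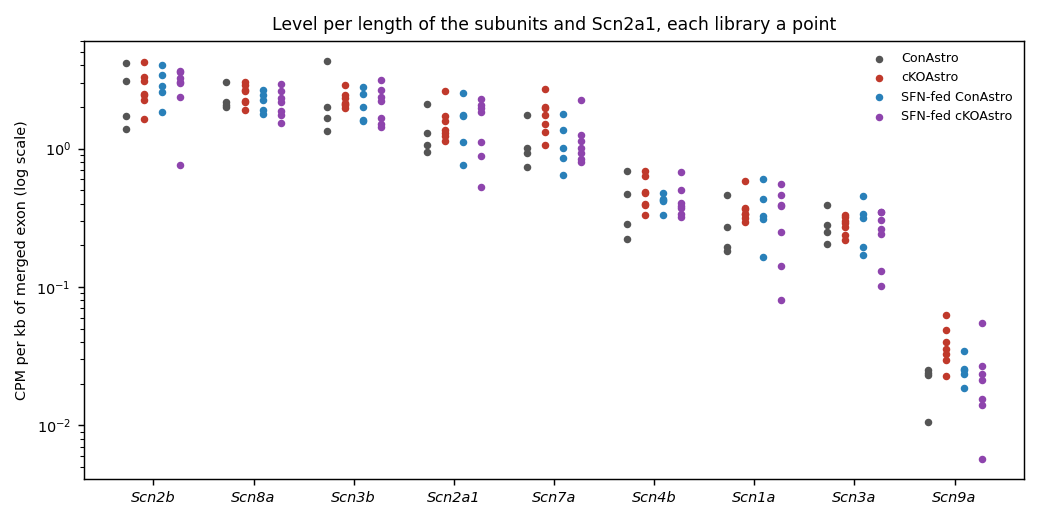
Level of each gene in CPM per kb of merged exon (vertical axis, log scale) for the 8 subunits and Scn2a (Scn2a1), with each library as a point coloured by group. Scn2b, Scn8a and Scn3b sit highest and overlap, and Scn9a sits lowest (median 0.0251).

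Among the α subunits, Scn8a was the steadiest, with a 1.98-fold range over all libraries. In ConAstro its level was 48.0, 31.5, 32.5 and 34.1 CPM, and in cKOAstro it ran from 30.1 to 47.4 with a median of 40.8. In SFN-fed ConAstro it was 30.2, 35.4, 28.0, 38.4 and 41.6 CPM, and in SFN-fed cKOAstro it ran from 24.3 to 45.8 with a median of 34.1. The 4 groups overlapped throughout, and 1 ConAstro library, replicate 1, stood above the other 3.

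Scn1a, which encodes Nav1.1, the α subunit of fast-spiking inhibitory neurons, varied 7.50-fold. It was 5.12, 2.04, 3.05 and 2.16 CPM in ConAstro and 3.46, 4.83, 1.83, 3.62 and 6.68 CPM in SFN-fed ConAstro. It ran from 3.27 to 6.48 CPM (median 3.78) in cKOAstro and from 0.892 to 6.18 CPM (median 4.31) in SFN-fed cKOAstro. The cKOAstro libraries lay above 3 of the 4 ConAstro libraries, and the SFN-fed cKOAstro group held both the lowest libraries, replicates 4 and 1, and one of the highest. Scn3a, which encodes Nav1.3, an α subunit best known from the developing brain, varied 4.47-fold, with group means between 3.09 ± 1.23 CPM (SD, n = 7) in SFN-fed cKOAstro and 3.66 ± 1.42 CPM (SD, n = 5) in SFN-fed ConAstro.

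Scn7a was 7.44, 6.85, 12.7 and 5.37 CPM in ConAstro and ran from 7.77 to 19.6 CPM (median 12.8) in cKOAstro. In SFN-fed ConAstro it was 6.23, 13.0, 10.04, 4.72 and 7.42 CPM, and in SFN-fed cKOAstro it ran from 5.91 to 16.5 CPM (median 7.42). All 7 cKOAstro libraries lay above 3 of the 4 ConAstro libraries and 4 lay above all of them, while in SFN-fed cKOAstro a single library, replicate 5, stood well above the rest. Scn9a, which encodes Nav1.7, an α subunit best known from sensory neurons, was 0.322, 0.136, 0.296 and 0.307 CPM in ConAstro and ran from 0.288 to 0.796 CPM (median 0.456) in cKOAstro. It was 0.299, 0.437, 0.320, 0.238 and 0.325 CPM in SFN-fed ConAstro and ran from 0.0732 to 0.705 CPM (median 0.270) in SFN-fed cKOAstro. Of the cKOAstro libraries, 6 of 7 lay above all ConAstro libraries, and the highest SFN-fed cKOAstro library was again replicate 5. These values rest on few reads, between 10 and 26 counts per library in ConAstro and between 7 and 79 in SFN-fed cKOAstro.

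Among the β subunits, Scn2b was 19.4, 7.95, 14.3 and 6.41 CPM in ConAstro and 11.999, 13.1, 8.53, 15.9 and 18.7 CPM in SFN-fed ConAstro. It ran from 7.57 to 19.7 CPM (median 11.5) in cKOAstro and from 3.57 to 17.0 CPM (median 13.98) in SFN-fed cKOAstro. The ConAstro libraries spanned nearly the whole range of the other groups, and SFN-fed cKOAstro replicate 4 alone lay far below. Scn3b, a noncovalently bound β subunit, had group means between 11.4 ± 2.94 CPM (SD, n = 5) and 12.7 ± 7.40 CPM (SD, n = 4), the latter holding ConAstro replicate 3 at 23.6 CPM. Scn4b, the β subunit linked to resurgent current, had group means between 2.08 ± 1.05 CPM (SD, n = 4) in ConAstro and 2.43 ± 0.657 CPM (SD, n = 7) in cKOAstro. For all 3, the differences between group means were smaller than the SD within at least 1 of the groups.

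**Figure D2:**
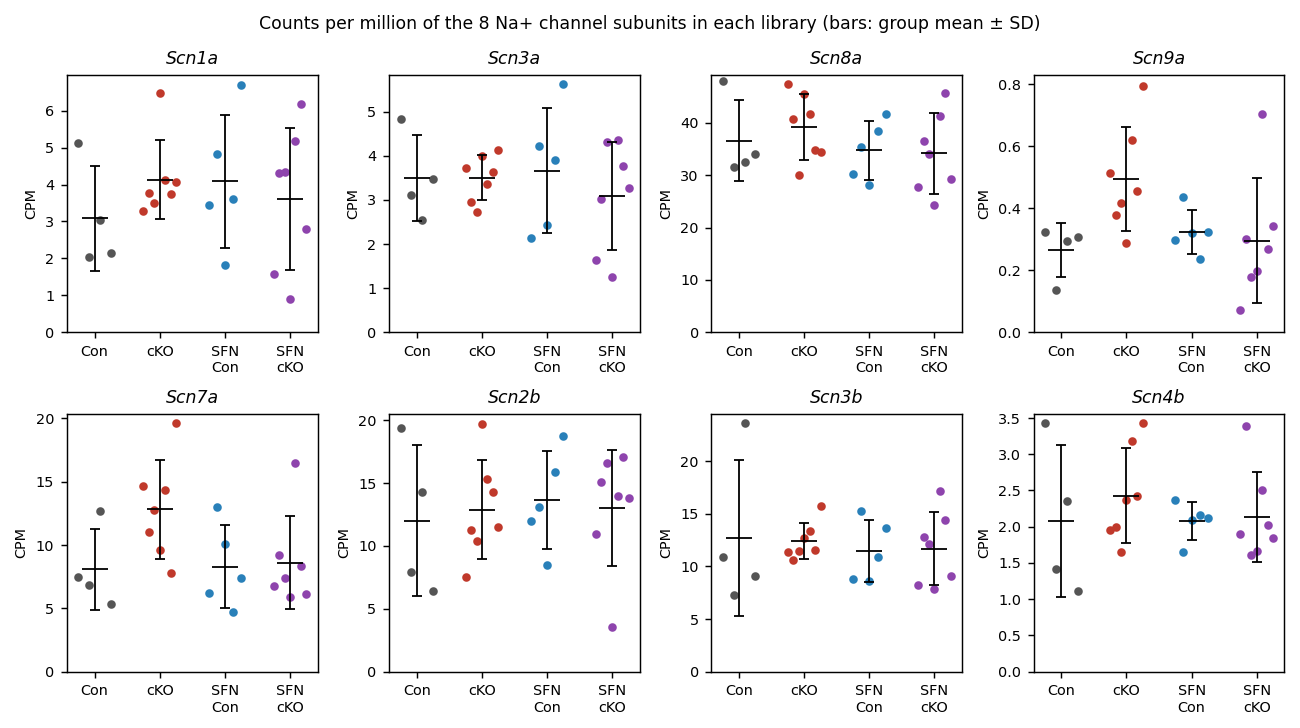
CPM (vertical axes) of each subunit in each library, as points by group (Con, ConAstro, 4 libraries; cKO, cKOAstro, 7; SFN Con, SFN-fed ConAstro, 5; SFN cKO, SFN-fed cKOAstro, 7), with bars for the group mean ± SD. The groups overlap for every gene; for Scn9a, 6 of 7 cKOAstro points lie above all ConAstro points.

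Loss of ALDH7A1 on the control diet was addressed by cKOAstro against ConAstro. The Slc1a3-CreER allele goes with the genotype, and the paper reports that Slc1a3 differed significantly between these groups. Loss of ALDH7A1 therefore cannot be told apart from that allele, in this or the other genotype comparisons. The largest differences were those of Scn9a, 0.90 ± 0.33 higher in cKOAstro on the log2 scale (± SE, mean 0.496 against 0.265 CPM), and of Scn7a, 0.66 ± 0.28 higher (12.8 against 8.09 CPM). Neither passed the threshold after adjustment over 17406 genes (edgeR, adjusted p = 0.981 for both, unadjusted p = 0.0188 and 0.0357). Scn1a followed with 0.41 ± 0.27, then Scn4b with 0.22 ± 0.31, Scn8a with 0.10 ± 0.15 and Scn2b with 0.09 ± 0.31. Scn3a (0.00 ± 0.18) and Scn3b (-0.04 ± 0.27) had estimates near 0. In bulk libraries, fewer cells of a type and less RNA per cell cannot be told apart.

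None of the 8 subunits was called, against 0.023% of all genes tested (4 genes, Aldh7a1 among them at -1.86 ± 0.13, adjusted p = 6.94e-05 in edgeR). At an unadjusted p under 0.05 stood 2 of 8 subunits, against 3.74% of all genes, and no subunit had groups free of overlap, against 0.494% of all genes. The median fold change of the 8 was 0.16 on the log2 scale, with 7 of 8 above 0, beside -0.01 and 47.6% over all genes. Within the libraries with numbered names, which leaves out 2 cKOAstro libraries whose names begin with Astro, the difference was 1.09 for Scn9a and 0.78 for Scn7a. All ConAstro library names begin with 143 and no cKOAstro name does, so this comparison cannot be told apart from the name prefix, which the numbered libraries do not change. A single ConAstro library moved several estimates: Scn1a was 0.77 without replicate 1, Scn3b 0.44 without replicate 3 and Scn7a 0.96 without replicate 3. Depth moved with this comparison, as given above, and its part in the result was not tested.

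SFN in mice labelled as lacking ALDH7A1 was addressed by SFN-fed cKOAstro against cKOAstro. Scn9a (-0.74 ± 0.37 log2, 0.296 against 0.496 CPM) and Scn7a (-0.57 ± 0.24, 8.61 against 12.8 CPM) again had the largest differences, now lower in SFN-fed mice, with an adjusted p of 0.476 and 0.459 in edgeR (unadjusted p = 0.0665 and 0.0310). The other 6 lay between -0.20 ± 0.14 (Scn8a) and 0.02 ± 0.28 (Scn2b). None of 8 was called, and none of 16903 genes (0%), with 1 of 8 at an unadjusted p under 0.05, against 10.9% of all genes. No subunit had groups free of overlap (0.0947% of all genes). The cKOAstro libraries stand in this comparison and in the previous one, so the opposite signs of Scn7a and Scn9a are not independent. Without SFN-fed cKOAstro replicate 2, which went against its label, the differences were -0.74 and -0.59, and without replicate 5 they were -1.11 and -0.81. Without replicate 4, which stood apart, Scn1a was -0.02, Scn3a -0.05, Scn8a -0.13 and Scn2b 0.18. Among numbered libraries only they were -1.35 and -0.94, but these 2 groups share no prefix other than Astro, so group and prefix cannot be told apart in that fit.

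In mice labelled as having ALDH7A1, SFN-fed ConAstro against ConAstro gave differences between -0.17 ± 0.34 (Scn3b) and 0.40 ± 0.39 (Scn1a) on the log2 scale. Scn9a was 0.28 ± 0.32 and Scn7a was 0.02 ± 0.33. All ConAstro library names begin with 143 and no SFN-fed ConAstro name does, so diet and name prefix cannot be told apart here. Without SFN-fed ConAstro replicate 1, which held Aldh7a1 at the level of cKOAstro, the differences ran from -0.08 ± 0.36 (Scn3b) to 0.45 ± 0.43 (Scn1a), with Scn9a at 0.30 and Scn7a at 0.11. None of 8 subunits and no gene (0%) was called in edgeR, and 0 of 8 subunits stood at an unadjusted p under 0.05, against 6.54% of all genes. No subunit had groups free of overlap (1.93% of all genes).

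On the SFN diet, SFN-fed cKOAstro against SFN-fed ConAstro gave differences between -0.25 ± 0.33 (Scn3a) and 0.05 ± 0.29 (Scn7a), with Scn9a at -0.13 ± 0.42. Again 0 of 8 subunits and 0% of genes were called, while 0 of 8 subunits and 20.3% of genes stood at an unadjusted p under 0.05 in edgeR. No subunit had groups free of overlap (1.23% of all genes). This comparison holds both libraries that went against their labels, and the median of the 8 differences was -0.05 with them and -0.12 without them.

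SFN-fed cKOAstro against ConAstro, which sets SFN-fed mice labelled as mutants beside controls on control food, gave differences between -0.19 ± 0.33 (Scn3a) and 0.21 ± 0.46 (Scn1a), with Scn7a at 0.07 ± 0.30 and Scn9a at 0.14 ± 0.50. None of 8 subunits was called (0% of genes), none stood at an unadjusted p under 0.05 in edgeR (8.67% of genes), and no subunit had groups free of overlap (1.45% of genes). Without SFN-fed cKOAstro replicate 2, which held Aldh7a1 at the level of ConAstro, the differences ran from -0.17 ± 0.36 (Scn3a) to 0.17 ± 0.50 (Scn1a), with Scn9a at 0.16 and Scn7a at 0.07. It shares its libraries with the comparisons above.

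Whether the genotype difference depended on diet was tested by the interaction over all 4 groups. It was -1.03 ± 0.55 for Scn9a, -0.61 ± 0.42 for Scn7a and -0.60 ± 0.55 for Scn1a on the log2 scale, so the genotype difference was smaller or opposite under SFN in the estimates, but none passed the threshold (edgeR, adjusted p = 0.681, 0.736 and 0.796, unadjusted p = 0.0768, 0.161 and 0.290). The other 5 lay between -0.25 ± 0.40 (Scn3a) and 0.06 ± 0.36 (Scn3b). None of 8 subunits and 0% of genes were called, with 0 of 8 and 7.32% at an unadjusted p under 0.05. Among numbered libraries only, the interaction was -1.65 for Scn9a and -1.05 for Scn7a. A missed threshold does not show that the genotype difference was alike. The interaction also rests on ConAstro, whose name prefix neither cKOAstro nor SFN-fed ConAstro shares, so prefix cannot be told apart from it.

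**Figure D3:**
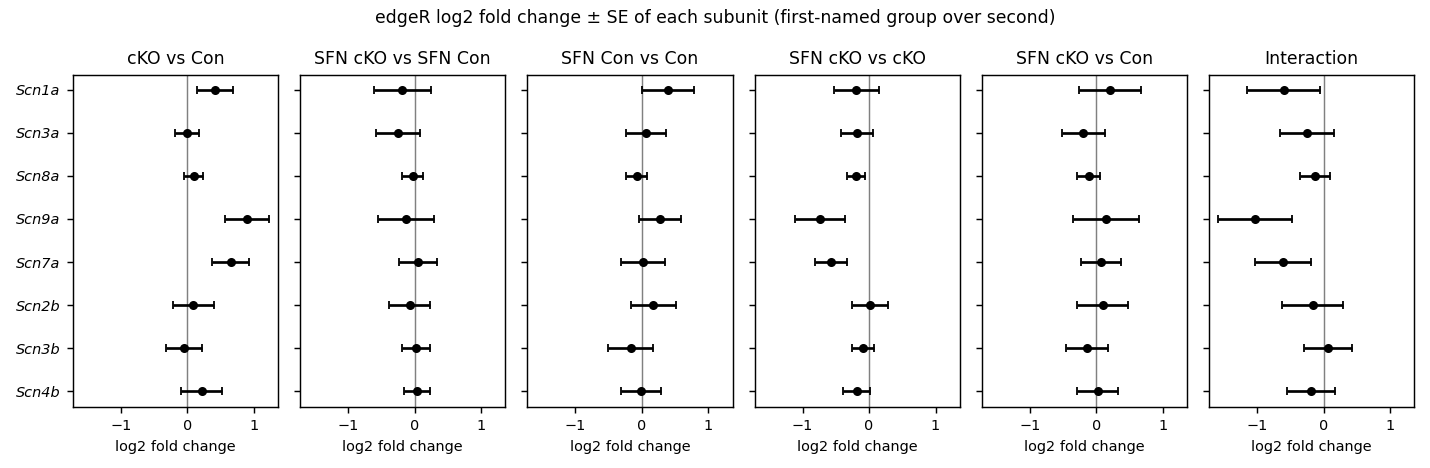
Log2 fold change (horizontal axes) of each subunit in each of the 5 comparisons and the interaction, as points with bars for ± 1 SE from edgeR. Scn9a and Scn7a lie to the right of 0 in cKOAstro against ConAstro (0.90 and 0.66) and to the left in SFN-fed cKOAstro against cKOAstro (-0.74 and -0.57), and Scn9a, Scn7a and Scn1a lie to the left in the interaction (-1.03, -0.61 and -0.60).

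Among other family members, Scn2a (Scn2a1 in the table), the α subunit Nav1.2 of excitatory neurons, had a median of 1.35 CPM per kb, between Scn3b and Scn7a. Scn4a, the skeletal muscle α subunit, held at most 42 counts in a library and was at 0 in 5 of 23 libraries, while Scn10a and Scn11a, α subunits of sensory neurons, were at 0 in 15 and 7 libraries and did not pass the filter. Between cKOAstro and ConAstro, Scn2a differed by 0.20 ± 0.26 and Scn4a by 1.46 ± 0.73 on the log2 scale. Neither was called (0.023% of all genes).

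In edgeR with all libraries, 0.023% of all genes passed the threshold in cKOAstro against ConAstro and 0% in the other comparisons. Partners that anchor or modulate these channels did not pass it in any. They were 11 genes, among them the anchor Ank3, the adhesion molecules Nfasc, Nrcam and Cntn1, the spectrin Sptbn4, the intracellular fibroblast growth factor homologues Fgf11, Fgf12, Fgf13 and Fgf14 and the ubiquitin ligase Nedd4l. In cKOAstro against ConAstro, 6 were higher and 5 lower, with a median of 0.04, and 2 stood at an unadjusted p under 0.05 in edgeR, against 3.74% of all genes, Cntn1 among them at -0.29 ± 0.10 (103 against 126 CPM). Cntn1 was also lower in SFN-fed cKOAstro against SFN-fed ConAstro, with -0.35 ± 0.11 (edgeR, adjusted p = 0.195), where 3 of 11 partners and 20.3% of all genes stood at an unadjusted p under 0.05. There it passed with limma-voom (-0.35 ± 0.08, adjusted p = 0.0120) and in edgeR without SFN-fed cKOAstro replicate 3 (-0.42 ± 0.09, adjusted p = 0.0351), and limma-voom also called it in SFN-fed cKOAstro against ConAstro (-0.44 ± 0.09, adjusted p = 0.0493). Another list held 11 genes for other routes of Na+ across the membrane, such as the leak channel Nalcn, the epithelial channel subunit Scnn1a, the exchanger Slc8a1 and the pump subunit Atp1b1. None of them was called in any comparison, beside the shares of all genes given above. In cKOAstro against ConAstro the median of the 10 tested was 0.03, with Scnn1a at 0.51 ± 0.28. In SFN-fed cKOAstro against cKOAstro, Scnn1a was lower by 0.55 on the log2 scale (-0.55 ± 0.21, unadjusted p = 0.0215 and adjusted p = 0.459 in edgeR).

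Neuron markers were present in every library. The 14 markers, Rbfox3, Snap25, Syt1, Slc17a7, Gad1 and others, were at 0 in no library and summed to 449 to 1532 CPM in ConAstro and to 543 to 1378 CPM in cKOAstro. The SFN-fed sums were 732 to 1088 CPM for ConAstro mice and 310 to 1313 CPM for cKOAstro mice. Of the 14, 13 had higher estimates in cKOAstro than in ConAstro, with a median of 0.31, beside 47.6% of all genes. None was called (0.023% of all genes). Higher in SFN-fed cKOAstro were 10 against SFN-fed ConAstro (median 0.07), 8 against cKOAstro (0.03) and 13 against ConAstro (0.25). In SFN-fed ConAstro against ConAstro, 12 were higher (0.17). Of all genes, 51.2%, 51.5%, 47.6% and 48.4% were higher in that order, and edgeR called none. The 10 markers of oligodendrocyte precursor cells (OPCs), such as Pdgfra and Cspg4, were at 0 in no library either and summed to 180 to 354 CPM in ConAstro and to 168 to 367 CPM in cKOAstro. The SFN-fed sums were 190 to 390 CPM for ConAstro mice and 108 to 335 CPM for cKOAstro mice. Of the 10, 8 had lower estimates in cKOAstro than in ConAstro, with a median of -0.16. None was called (0.023% of all genes), and 47.6% of all genes were higher. All 10 were lower in SFN-fed cKOAstro against SFN-fed ConAstro (median -0.51), against cKOAstro (-0.24) and against ConAstro (-0.45). In these, 51.2%, 51.5% and 47.6% of all genes were higher, and edgeR called none. In the first of these, limma-voom called Pdgfra, Cspg4 and others, among many genes. In SFN-fed ConAstro against ConAstro, 8 of 10 were higher (median 0.10), beside 48.4% of all genes.

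Across the 23 libraries, the log2 level of Scn2b followed the summed neuron markers most closely, with Pearson's r = 0.89 and Spearman's rho = 0.79 (permutation p = 1e-05, the smallest that the permutations can give, and 2e-05; Benjamini-Hochberg adjusted p over 16 relations, 8 subunits with 2 marker lists, 0.000160 and 0.000320). Without the 2 libraries farthest from the median marker level, SFN-fed cKOAstro replicate 4 and ConAstro replicate 4, its r was 0.78, and among the 17 numbered libraries it was 0.81. Scn1a had r = 0.67 and rho = 0.54 (permutation p = 0.000750 and 0.00850, adjusted 0.00600 and 0.0453). Scn4b had r = 0.60 and rho = 0.56 (permutation p = 0.00217 and 0.00604, adjusted 0.0116 and 0.0453). The relation of Scn1a rested on the 2 farthest libraries, without which r was 0.43 (adjusted p = 0.221), and with this sum it did not pass among the numbered libraries alone (r = 0.41, adjusted p = 0.328). That of Scn4b rested on the same 2 libraries in part (r = 0.50 without them, adjusted p = 0.165) and was 0.64 among the numbered libraries (adjusted p = 0.0420). Taken as deviations from the group means, r was 0.89 for Scn2b, 0.70 for Scn1a and 0.61 for Scn4b. Without the 2 libraries that went against their labels, r was 0.89, 0.67 and 0.61, while the rho of Scn1a and Scn4b no longer passed (permutation test, adjusted p = 0.0734 and 0.0673).

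The remaining 5 subunits did not pass the adjusted threshold with neuron markers, with r of 0.46 for Scn8a, 0.45 for Scn3a, 0.36 for Scn3b, 0.16 for Scn9a and 0.12 for Scn7a. With OPC markers no relation over the 23 libraries passed it. The highest was Scn3a, with r = 0.49 and rho = 0.51 (permutation p = 0.0156 and 0.0144, adjusted 0.0626 and 0.0576), and among the numbered libraries its rho of 0.71 passed (permutation p = 0.00218, adjusted 0.0174) while its r of 0.52 did not (adjusted 0.214). The others lay between -0.30 (Scn4b) and 0.18 (Scn9a). Neuron and OPC markers were not the closest lists for Scn3a and Scn8a. Scn3a had r = 0.51 with mural cell markers such as Pdgfrb (0.47 among the numbered libraries). Scn8a had r = -0.53 with genes of the response to dissociation, such as Fos and Jun (-0.39 among the numbered libraries). These lists were described without a test. With the 10 single OPC markers, Scn3a had a median r of 0.35 (0.46 among the numbered libraries). These ran from -0.15 to 0.72, the highest with Tnr, an extracellular matrix gene. The summed neuron level is weighted to its most abundant genes, and Camk2a, which reached 710 CPM, had r of only 0.07 with Scn1a. With single neuron markers, Scn1a had a median r of 0.85, the highest with Syt1 at 0.96, and among the numbered libraries the median was 0.74 and r with Syt1 was 0.93. Scn2b had a median of 0.88 (0.82 among the numbered libraries), the highest with Slc17a7 at 0.97. The medians were 0.66 for Scn8a, 0.64 for Scn3a, 0.50 for Scn3b and 0.49 for Scn4b, and 0.40, 0.41, 0.38 and 0.56 among the numbered libraries. Those of Scn7a (0.21) and Scn9a (0.20) were the lowest of the 8.

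**Figure D4:**
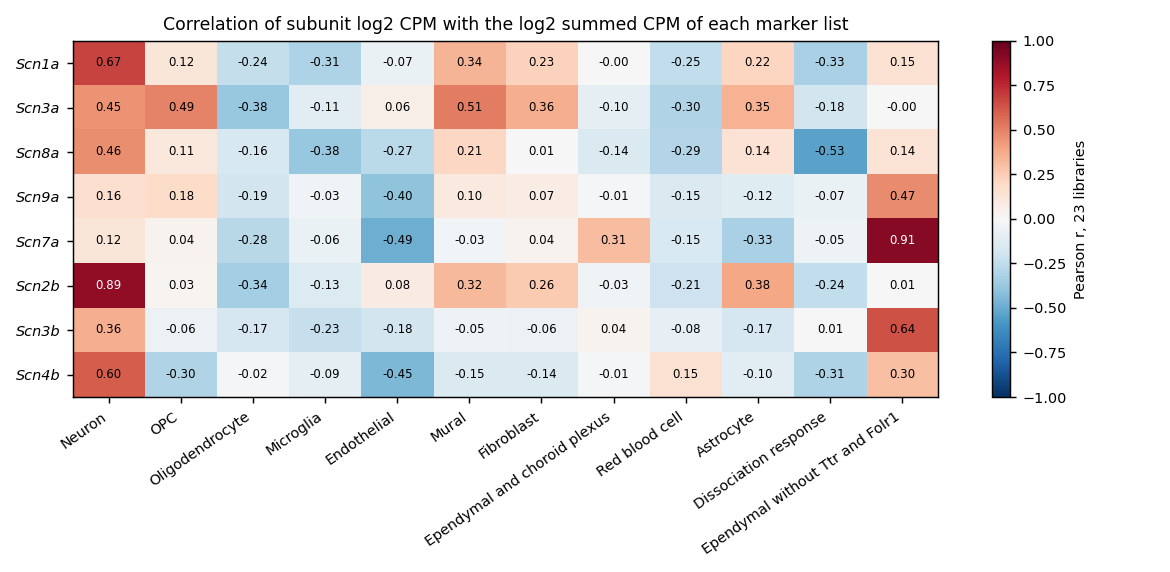
Pearson's r over 23 libraries between the log2 CPM of each subunit (rows) and the log2 summed CPM of each marker list (columns), coloured from -1 to 1 with the value in each cell. Scn2b, Scn1a and Scn4b have their highest r with neuron markers (0.89, 0.67 and 0.60), and Scn7a with the 6 ependymal markers (0.91). Those 6 were split from their list after the values were seen, and with the full list r of Scn7a was 0.31.

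Scn7a followed a different set. Its level had r = 0.31 with the summed list of 8 ependymal and choroid plexus markers, a sum that Ttr, a choroid plexus gene of up to 4029 CPM, dominated in some libraries. With the 6 ependymal genes alone, Foxj1, Ccdc153, Tmem212, Rsph1, Dynlrb2 and Ak7, all tied to motile cilia, r was 0.91 (0.90 among numbered libraries and 0.92 as deviations from the group means), a split chosen after the values were seen. Each of these 6 was present in every library, and r with Scn7a ran from 0.89 for Foxj1 to 0.93 for Ak7, but it was 0.15 for Ttr and 0.44 for Folr1. Of the other subunits, Scn3b had r = 0.64 and Scn9a 0.47 with the 6 genes, and the rest lay between -0.0025 (Scn3a) and 0.30 (Scn4b). With the summed astrocyte markers, r of Scn7a was -0.33 (-0.65 among numbered libraries), and the other subunits lay between -0.17 (Scn3b) and 0.38 (Scn2b). With endothelial markers, r of Scn7a was -0.49 (-0.53 among numbered libraries). These values were not tested.

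The same 6 genes summed to between 238 and 708 CPM (median 257) in ConAstro and between 268 and 679 (median 422) in cKOAstro. They summed to between 160 and 493.3 CPM (median 219) in SFN-fed ConAstro and between 206 and 576 (median 337) in SFN-fed cKOAstro. The groups overlapped, and the medians of the cKOAstro groups lay above those of the ConAstro groups on either diet. In SFN-fed cKOAstro against cKOAstro, all 8 markers of the full list were lower, with a median of -0.47, where 51.5% of all genes were higher. In edgeR, 3 stood at an unadjusted p under 0.05 (10.9% of all genes) and none was called (0% of all genes). Between cKOAstro and ConAstro, 6 of 8 had higher estimates in cKOAstro, with a median of 0.35, beside 47.6% of all genes. None was called (0.023% of all genes). Their part in the Scn7a values was not tested.

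**Figure D5:**
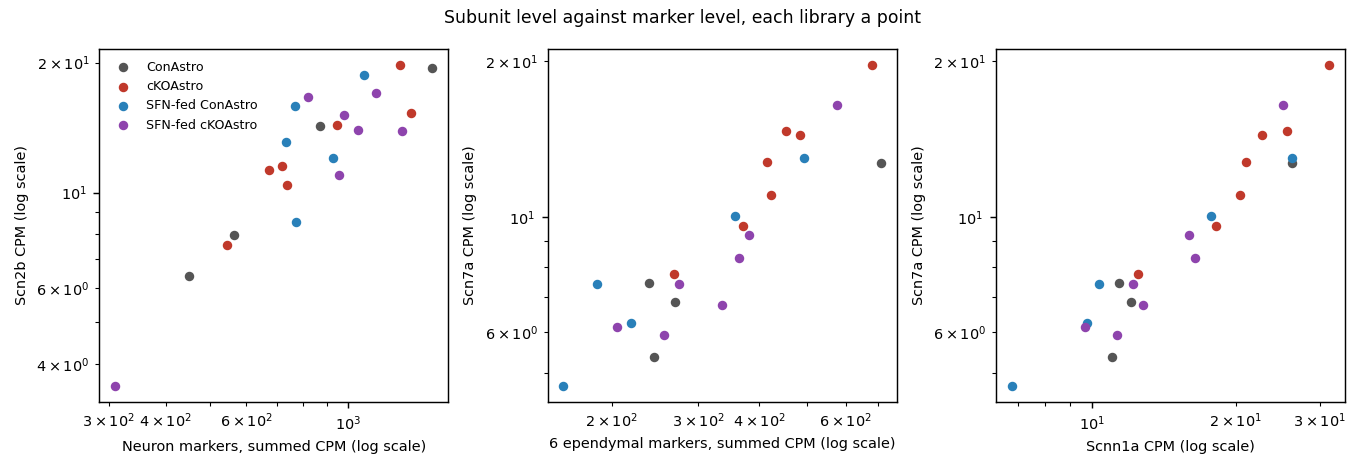
Each library as a point coloured by group, on log axes: Scn2b CPM against summed neuron marker CPM (left), Scn7a CPM against the summed CPM of 6 ependymal markers (middle) and Scn7a CPM against Scnn1a CPM (right). The points rise together in all 3 panels (r of log2 values 0.89, 0.91 and 0.96), with the 4 groups intermixed. The middle and right panels were chosen from these same values, so their rise is no separate support. The 6 markers were split from their list after the values were seen (r = 0.31 with the full list). Scnn1a was the gene most like Scn7a among 17290 ranked.

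Genes whose levels were most like each subunit were ranked by Pearson's r of log2 CPM over 23 libraries among 17290 genes outside the channel family. The points share depth and cell composition, so these values are descriptions. Among the 3 genes most like Scn1a were Cacna1b, a presynaptic Ca2+ channel (r = 0.98), and the GABA-A receptor subunit Gabrb2 (0.97). Among the 3 genes most like Scn2b were Slc17a7, the vesicular glutamate transporter (0.97), and the synaptic vesicle gene Rab3c (0.97). These are genes known from neurons.

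Scn3a was most like Fam169a (0.92), Cntnap5b (0.91) and Shisa7 (0.90). Scn8a was most like Prrt2, a presynaptic gene (0.89), Trank1 (0.87) and the Ca2+ release channel Ryr2 (0.85). Scn3b was most like Nmnat2, an axon survival enzyme (0.92), Ap3m2 (0.88) and 6330403K07Rik (0.87). Among the 3 genes most like Scn4b were Ankrd63 (0.82) and Tcap (0.73).

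Scn7a was most like Scnn1a, a subunit of the epithelial Na+ channel (0.96), the Ca2+ buffer Calb1 (0.95) and Srl (0.95), and these values were 0.97, 0.97 and 0.94 among the numbered libraries. Scnn1a ranged from 6.80 to 31.4 CPM, and its highest library, like that of Scn7a, was in cKOAstro (mean 21.7 CPM against 15.2, 14.2 and 14.8 in ConAstro, SFN-fed ConAstro and SFN-fed cKOAstro). Scn9a had the lowest leading match of the 8, with Gpr135 (0.81), AW551984 (0.80) and Ankfn1 (0.78).

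Among themselves, the subunits had high r both within the α class and between α and β subunits. Scn1a and Scn2b had r = 0.85, Scn1a and Scn3a 0.83, Scn1a and Scn8a 0.79, and Scn3a and Scn8a 0.76 across 23 libraries. Scn7a and its neighbour Scn9a had r = 0.70 (rho = 0.71, and 0.60 as deviations from the group means), and Scn7a and Scn3b had 0.65. The adjacent genes Scn2b and Scn4b had 0.53, and Scn7a and Scn2b, at 0.12, had the lowest r of the 28 pairs.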

How the data were processed

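RNA of 23 libraries of ACSA-2-captured mouse cortical cells, 1 per mouse, was sequenced by the authors, and the submitters' processing notes name FastQC and STAR with the mm10 build. The STAR version, gene annotation and strand setting are not given in the sources used here. The authors deposited raw read counts per gene symbol, with no normalization. Groups were taken from the sample titles. Each pairwise comparison was fitted on its own 2 groups, and the interaction on all 4, with edgeR 4.0.16 (R 4.3.3; TMM scaling, quasi-likelihood test, genes kept by filterByExpr with a minimum count of 10, Benjamini-Hochberg threshold 0.05). Levels are CPM with TMM scaling over all 23 libraries, on the totals of the 17302 genes kept, and between genes are given per kb of merged GENCODE M21 exons. Correlations used log2 CPM with a prior count of 2 and 100000 permutations, two-sided. Alternatives were DESeq2 1.42.0, limma-voom 3.58.1 with sample quality weights, RLE scaling, no low-count filter, a replicate block, libraries with numbered names only, the name series as a covariate, leaving out the libraries against their labels, and leaving out each library. Scripts were tested on simulated data. The text names the 8 subunits, listed family members and partners, markers by list, and the 3 genes most like each subunit. The members and lists were chosen with earlier results of these data known. Totals of 46890715 to 391701247 counts set the precision. The edgeR p-values set group differences against the spread between libraries within groups, each from 1 mouse. That spread takes in depth, name prefix and cell composition. The permutation p-values come from shuffling libraries over all groups. Values of some listed genes are not reported here.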

Additional observations from a re-analysis of the deposited data

Results flagged for a closer look

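Single libraries stood apart from the rest of their group in 5 of 40 cases (the 8 subunits and the summed neuron and OPC markers, each in 4 groups) by Dixon's criterion at the 95% level, where chance gives about 1 in 20. Scn8a was highest in ConAstro replicate 1, at 48.0 CPM. Scn9a was lowest in ConAstro replicate 2, at 0.136 CPM, a value of 10 counts. Scn1a was highest in cKOAstro replicate 4, at 6.48 CPM. SFN-fed cKOAstro replicate 5 was highest for both Scn7a, at 16.5 CPM, and Scn9a, at 0.705 CPM.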

How the results depend on the processing

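No subunit passed the adjusted threshold in any of 133 fits, with a lowest adjusted p of 0.124 (limma-voom). Counts of all genes called moved. In cKOAstro against ConAstro, 4 became 8 with DESeq2 and 1 with the replicate block, and 2 to 4 when single libraries were left out (2 without ConAstro replicate 4). In SFN-fed cKOAstro against SFN-fed ConAstro, 0 became 250 with DESeq2, 4398 with limma-voom, 2 without the libraries against their labels, and 0 to 701 when single libraries were left out (701 without SFN-fed cKOAstro replicate 3). In SFN-fed ConAstro against ConAstro, 0 became 24 with DESeq2 and 0 to 1 with single libraries left out (1 without ConAstro replicate 4). In SFN-fed cKOAstro against ConAstro, 0 became 8 with DESeq2, 656 with limma-voom, 2 without the libraries against their labels, and 0 to 2 with single libraries left out (2 without SFN-fed cKOAstro replicate 2). DESeq2 gave 15 in SFN-fed cKOAstro against cKOAstro and 3 in the interaction. The cause was not tested. Subunits at an unadjusted p under 0.05 in cKOAstro against ConAstro numbered 0 to 3 with single libraries left out, against 2 (0 without ConAstro replicate 2), and in SFN-fed cKOAstro against cKOAstro 0 to 2, against 1. Estimates near 0 changed sign. In cKOAstro against ConAstro, Scn3a was -0.061 with limma-voom and -0.049 with the replicate block (-0.12 to 0.20 with single libraries left out), Scn2b -0.016 in numbered libraries and -0.029 with the name series as a covariate (-0.11 to 0.43), and Scn3b 0.36 with limma-voom, 0.0063 with the replicate block and 0.0014 in numbered libraries (-0.23 to 0.44). In SFN-fed cKOAstro against cKOAstro, limma-voom gave 0.11 for Scn1a, 0.026 for Scn8a and 0.045 for Scn3b, and Scn2b was -0.0051 without the filter and -0.025 without the library against its label (-0.086 to 0.18). Scn9a in cKOAstro against ConAstro was 0.61 with the replicate block (unadjusted p = 0.136 in edgeR). The median over the 8 subunits in SFN-fed cKOAstro against ConAstro, 0.05, ran from -0.23 with the replicate block to 0.35 with limma-voom. Of 29 same-numbered pairs of libraries, 8 correlated over 0.1 (range -0.22 to 0.34). Pairs with unlike numbers are not given beside them, so whether replicate numbers pair the samples cannot be told from these values. Of the correlations with neuron markers, Scn1a fell short at 0.41 in numbered libraries and 0.43 without the 2 farthest libraries, Scn4b at 0.50 without them, and Scn7a turned to -0.041 and -0.20. With OPC markers and without the 2 farthest libraries, r was -0.054 for Scn1a, -0.050 for Scn7a, -0.038 for Scn8a and -0.23 for Scn2b, and that of Scn2b was -0.21 in numbered libraries and -0.0065 as deviations. Depth limits Scn9a, which held as few as 7 counts.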
